A study of Saccharomyces cerevisiae with 42 samples.

Results

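The enzymes that supply deoxyribonucleotides and copy DNA were followed through heat stress in Saccharomyces cerevisiae by way of 10 genes, out of 5656 measured on Affymetrix arrays. The 10 were chosen by name: the ribonucleotide reductase genes RNR1 (YER070W), RNR2 (YJL026W), RNR3 (YIL066C) and RNR4 (YGR180C), and the replication genes CDC21 (YOR074C), POL1 (YNL102W), POL30 (YBR088C), RFA1 (YAR007C), RFA2 (YNL312W) and CDC9 (YDL164C). Each gene was read from 1 probe set, the one with the highest mean over all 42 arrays. All 10 were tested, and no filter on dim signal was used. The 42 arrays cover 3 strains at 7 times, namely before heat and 5, 10, 15, 20, 25 and 30 min into a shift to 39 C, and every combination was hybridised on 2 arrays. Strain dpl1D carried dpl1:KanMX and so lacked DPL1, whose product cleaves phosphorylated sphingoid bases, the phosphorylated long-chain building blocks of sphingolipids. Strain lcb4D/lcb5D carried KanMX in both LCB4 and LCB5, the kinases that make those phosphorylated bases. JK939a, the strain without KanMX, is the one the deletion strains were set against. Shared by all 3 strains were the mating type MAT α, HMLa, rme1 and the alleles leu2-3 112, ura3-52, trp1 and his4, and all cultures grew in YPD (rich medium with glucose) to log phase. Nothing in the labels says whether the 2 arrays of a group came from separate cultures, so the spread behind each p-value is that between arrays and may be technical.

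Ribonucleotide reductase converts ribonucleotides into deoxyribonucleotides and sets the supply of DNA precursors. In budding yeast its large subunit is Rnr1, with Rnr3 as a second, DNA-damage-inducible large subunit, and its small subunits are Rnr2 and Rnr4. RNR1, POL1, POL30, CDC21, RFA1, RFA2 and CDC9 belong to the genes known to peak around the G1 to S transition of the cell cycle, whereas RNR2, RNR3 and RNR4 are known for their induction by DNA damage. In these bulk cultures, fewer cells in S phase and less RNA per cell cannot be told apart.

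The deleted genes matched the labels. DPL1 lay between 2.58 and 3.63 (log2) on the dpl1D arrays, against 8.72 to 9.81 on the JK939a arrays. On the lcb4D/lcb5D arrays LCB4 lay between 2.53 and 3.68 and LCB5 between 2.31 and 3.48, against 4.49 to 5.47 and 4.98 to 7.67 on the JK939a arrays. The 4 α-specific genes had medians of 9.82, 9.51 and 10.1 before heat in dpl1D, lcb4D/lcb5D and JK939a, and the 6 a-specific genes 3.68, 3.41 and 3.46. One JK939a array stood apart: on a probe set with no gene symbol, picked after its values were seen, the 28 arrays of the deletion strains read 11.8 or more, replicate 1 of JK939a before heat read 8.15, and the other 13 JK939a arrays read at most 4.27. Mean heat responses of JK939a that were called with all arrays are also given without that array. Replicate number went with array quality: the SRB4 control's 3′ minus 5′ difference averaged 1.97 ± 0.537 on replicate 2 arrays and 0.516 ± 0.273 on replicate 1 arrays (SD, n = 21 each). Within a strain that difference averaged 1.01 on heated and 0.843 on unheated arrays of dpl1D, 1.56 and 1.24 in lcb4D/lcb5D, and 1.29 and 0.817 in JK939a; its part in the heat responses was not tested beyond the fit with it as a covariate.

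Averaged over the 6 heat times, 5 of the 10 genes fell in every strain: RNR1, POL1, POL30, CDC9 and CDC21. The falls of RNR1 came to 9.20-fold in dpl1D, 10.3-fold in lcb4D/lcb5D and 9.06-fold in JK939a, and those of POL30 to 5.41-fold, 6.32-fold and 4.52-fold. RFA1 was called lower in lcb4D/lcb5D and RNR3 was called higher in JK939a. The small-subunit genes RNR2 and RNR4 were not called in any strain in this fit, which ignores replicate number. With replicate number as a block within strains, both were called lower in lcb4D/lcb5D (-0.37 and -0.48). Calls are two-sided tests in limma with Benjamini-Hochberg adjustment over all 5656 genes, at an adjusted p under 0.05. In dpl1D 5 of 10 members were called lower, where 26.6% of all genes were, and 0 were called higher, against 20.6% of all genes. In lcb4D/lcb5D 6 of 10 were lower (25.2% of all genes) and 0 higher (19.1%). In JK939a 5 of 10 were lower (24.5%) and 1 was higher (21.8%). At an unadjusted p under 0.05, 5 members passed in dpl1D and 7 in lcb4D/lcb5D, each of them lower in heat. The members' median difference was -0.57 in dpl1D, -0.78 in lcb4D/lcb5D and -0.58 in JK939a, beside medians over all genes of -0.0548, -0.0225 and -0.0155. Without replicate 1 of JK939a before heat the JK939a differences were -3.42 for RNR1, -2.16 for POL1, -2.40 for POL30, -1.25 for CDC21 and -1.19 for CDC9, all still called, and RNR3 was not called (0.42). RNR2 was then at -0.72, against -0.30 with both unheated arrays and 0.13 without replicate 2 instead. CDC21 was at -0.46 without replicate 2. Replicate 2 read higher in 21 of 21 groups for RNR2 and in 14 for CDC21. Leaving out 1 unheated array therefore mixes replicate number with heat.

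**Figure D1:**
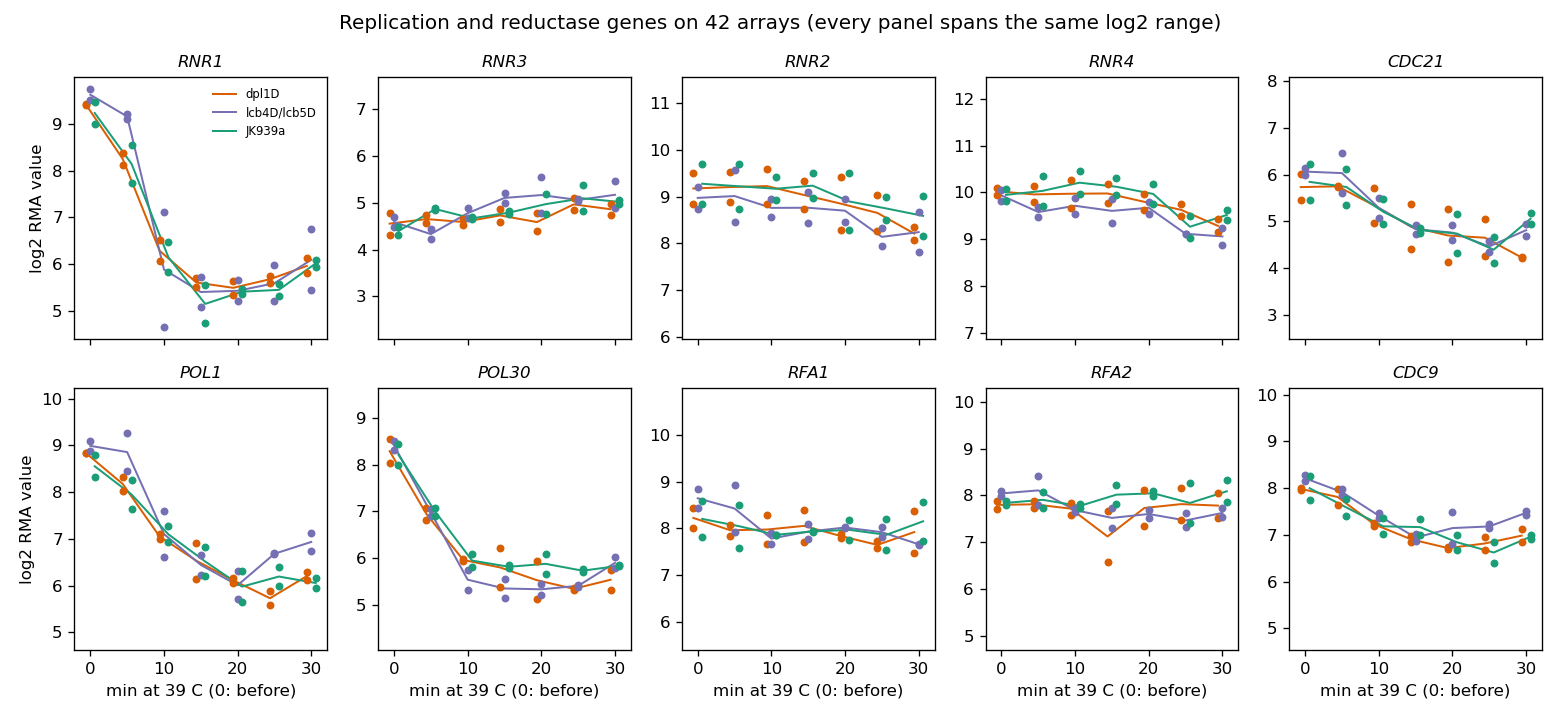
The log2 RMA values of the 10 genes on every array (points) against minutes at 39 C, with 0 as the time before heat, and lines through the group means, for dpl1D, lcb4D/lcb5D and JK939a. Each panel spans the same height. RNR1, POL1 and POL30 drop steeply within 15 min in all 3 strains, whereas RNR2, RNR4, RFA1 and RFA2 stay within 1.76 log2 units over the 14 arrays of each strain.

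RNR1, the main large subunit, had the largest mean difference of the 10 genes in each strain. In dpl1D its 2 arrays read 9.40 and 9.42 before heat, 8.12 and 8.38 at 5 min, 6.51 and 6.06 at 10 min, 5.71 and 5.50 at 15 min, 5.34 and 5.64 at 20 min, 5.60 and 5.75 at 25 min, and 6.12 and 5.80 at 30 min (log2). In lcb4D/lcb5D they read 9.74 and 9.51 before heat, 9.11 and 9.20 at 5 min, 7.11 and 4.66 at 10 min, 5.71 and 5.09 at 15 min, 5.65 and 5.21 at 20 min, 5.98 and 5.20 at 25 min, and 6.74 and 5.44 at 30 min. In JK939a they read 8.99 and 9.47 before heat, 7.74 and 8.54 at 5 min, 6.47 and 5.82 at 10 min, 5.56 and 4.74 at 15 min, 5.36 and 5.46 at 20 min, 5.32 and 5.57 at 25 min, and 6.08 and 5.95 at 30 min. All 12 heated arrays lay below both unheated arrays in each strain, and the arrays before heat and at 5 min were far above the rest. The 2 arrays of lcb4D/lcb5D at 10 min lay unusually far apart, replicate 1 above and replicate 2 below every later array of that strain. Replicate 2 there had an SRB4 3′ minus 5′ difference of 3.73, the highest of the 42 arrays, against 0.534 for replicate 1, and its part in the RNR1 values was not tested. The lowest mean came at 20 min in dpl1D, 15.1-fold below the level before heat, and at 15 min in lcb4D/lcb5D (18.6-fold below) and JK939a (17.0-fold below). By 30 min the mean was 1.38-fold, 1.61-fold and 1.82-fold above that lowest mean, and RNR1 was still called lower than before heat, by 3.45, 3.53 and 3.22 on the log2 scale (SE 0.493 each). Over the 6 heat times the difference from before heat was -3.20 in dpl1D (adjusted p = 1.14e-07), -3.36 in lcb4D/lcb5D (7.99e-08) and -3.18 in JK939a (1.63e-07), each with an SE of 0.376 in the limma fit.

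RNR3, the damage-inducible large subunit, rose in JK939a. In JK939a it read 4.31 and 4.48 before heat, and the 12 heated arrays ran from 4.65 over a median of 4.83 to 5.37. In lcb4D/lcb5D the heated arrays ran from 4.22 over 4.94 to 5.55, against 4.49 and 4.69 before heat, and in dpl1D from 4.39 over 4.74 to 5.10, against 4.32 and 4.79. Heated arrays lay above both unheated arrays 12 of 12 times in JK939a, 9 of 12 in lcb4D/lcb5D and 4 of 12 in dpl1D. The mean difference was 0.51 in JK939a (SE 0.186, limma adjusted p = 0.0273), 0.35 in lcb4D/lcb5D (adjusted p = 0.136) and 0.18 in dpl1D (adjusted p = 0.452). The JK939a call was lost without either unheated array: the difference was 0.42 without replicate 1 (adjusted p = 0.212) and 0.59 without replicate 2 (0.0803). With a replicate block within strains, the 30 min difference of lcb4D/lcb5D was also called (0.58, adjusted p = 0.0246). The RNR3 probe set is of the kind marked as matching more than 1 transcript, so its values may hold signal from a related gene.

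RNR2 and RNR4, the small subunits, were lowest at the end of the course. RNR4 read 10.1 and 9.95 before heat in dpl1D, between 9.63 and 10.3 from 5 to 20 min, then 9.50 and 9.76 at 25 min and 9.14 and 9.42 at 30 min. In lcb4D/lcb5D it read 9.81 and 10.1 before heat, between 9.35 and 9.89 from 5 to 20 min, then 9.11 and 9.12 at 25 min and 8.88 and 9.24 at 30 min. In JK939a it read 9.81 and 10.1 before heat, between 9.71 and 10.5 from 5 to 20 min, then 9.03 and 9.50 at 25 min and 9.41 and 9.63 at 30 min. In each strain the 4 arrays at 25 and 30 min were all below both unheated arrays. RNR4 fell at 30 min in dpl1D (-0.74, SE 0.271, limma adjusted p = 0.0324), at 25 and 30 min in lcb4D/lcb5D (-0.82 and -0.88, adjusted p = 0.0196 and 0.0180) and at 25 min in JK939a (-0.68, adjusted p = 0.0486). These tests share the 2 unheated arrays of a strain. The 25 min calls of lcb4D/lcb5D and JK939a are not given without single arrays, replicate 1 of JK939a before heat included. The 30 min call in dpl1D was lost without any 1 of the 4 arrays at 0 and 30 min (adjusted p from 0.0588 without replicate 2 at 30 min to 0.181 without replicate 1 at 30 min), and that in lcb4D/lcb5D without replicate 2 before heat (0.137) or replicate 1 at 30 min (0.124).

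RNR2 differed between replicate numbers. Replicate 2 read higher than replicate 1 in 21 of 21 groups, by 0.694 ± 0.262 (SD over groups, log2). Its mean over both arrays was lowest at 30 min in dpl1D and JK939a and at 25 min in lcb4D/lcb5D, at 8.21, 8.59 and 8.14. The differences from before heat at 30 min were -0.96 in dpl1D, -0.73 in lcb4D/lcb5D and -0.69 in JK939a (SE 0.491 each), and none was called (limma adjusted p = 0.126, 0.297 and 0.300). With a replicate block within strains the same differences were called, at adjusted p = 0.000378, 0.00640 and 0.00746. Taken over both replicate numbers, the heated arrays overlapped the unheated ones in every strain. Each 30 min array was below the unheated array of the same strain and replicate number. With that block the mean heat response of lcb4D/lcb5D was called for RNR2 (-0.37, adjusted p = 0.0472) and RNR4 (-0.48, adjusted p = 0.00419), and the 30 min difference of RNR4 in JK939a was called as well (-0.43, adjusted p = 0.0485).

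**Figure D2:**
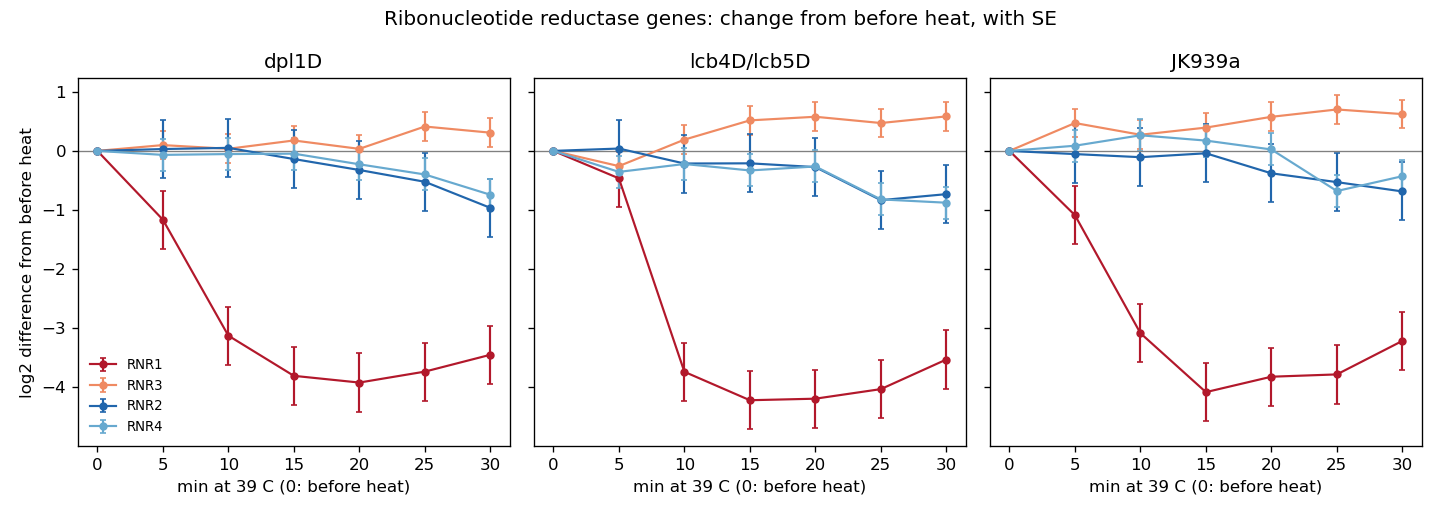
Log2 difference from the mean before heat, with its SE from the limma fit (vertical bars), for the 4 ribonucleotide reductase genes against minutes at 39 C in dpl1D, lcb4D/lcb5D and JK939a. RNR1 reaches -3.92, -4.22 and -4.08 at its lowest, whereas RNR2 and RNR4 stay above -1 in every strain and RNR3 lies at or above 0 at every time except 5 min in lcb4D/lcb5D.

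The change of RNR1 was set against that of each other reductase gene within the same arrays, a comparison added after the values were seen. The change of RNR1 was more negative than that of each partner. Change of RNR1 minus change of RNR3 was -3.38 in dpl1D, -3.71 in lcb4D/lcb5D and -3.69 in JK939a (log2). Against RNR2 it was -2.89, -2.99 and -2.88, and against RNR4 it was -2.95, -2.89 and -3.09. In dpl1D and JK939a the RNR1 minus partner difference of all 12 heated arrays lay below that of both unheated arrays for each partner, and in lcb4D/lcb5D that of 11 of 12 did. No test is given for these gaps. These are differences of changes, not of levels, since probe sets differ in brightness per transcript.

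CDC21, thymidylate synthase, which makes the thymine nucleotide for DNA, fell in each strain. In dpl1D it read 5.44 and 6.02 before heat and 4.23 and 4.22 at 30 min, and its 12 heated arrays ran from 4.14 over a median of 5.01 to 5.76. In lcb4D/lcb5D the heated arrays ran from 4.35 over 4.92 to 6.45, against 5.99 and 6.14 before heat, and in JK939a from 4.11 over 4.94 to 6.11, against 5.45 and 6.23. Heated and unheated arrays overlapped, with 9, 11 and 10 of 12 heated arrays below both unheated ones in dpl1D, lcb4D/lcb5D and JK939a. The mean heat response was -0.81, -1.03 and -0.85 (SE 0.306 each, limma adjusted p = 0.0316, 0.00740 and 0.0239). At 5 min the difference from before heat was 0.02, -0.03 and -0.11, and the first called time was 20 min in dpl1D and 15 min in lcb4D/lcb5D and JK939a. The mean response was no longer called without replicate 2 before heat in dpl1D (-0.52, adjusted p = 0.363) or JK939a (-0.46, 0.422), or without replicate 1 (-1.11, 0.0502) or replicate 2 (-0.96, 0.0919) before heat in lcb4D/lcb5D. The CDC21 probe set is also marked as matching more than 1 transcript. A second CDC21 probe set averaged 2.91 over the arrays and differed by -0.77 in JK939a heat.

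POL1, the catalytic subunit of DNA polymerase α, which starts each new strand with primase, fell in each strain and was lowest at 20 or 25 min. Its arrays in dpl1D read 8.84 and 8.83 before heat, 8.02 and 8.33 at 5 min, 7.01 and 7.09 at 10 min, 6.14 and 6.92 at 15 min, 6.17 and 6.06 at 20 min, 5.88 and 5.57 at 25 min, and 6.28 and 6.12 at 30 min. In lcb4D/lcb5D the heated arrays ran from 5.71 over a median of 6.68 to 9.27, against 9.10 and 8.88 before heat. In JK939a they ran from 5.65 over 6.35 to 8.26, against 8.32 and 8.79. All heated arrays lay below both unheated arrays in dpl1D and JK939a, and 11 of 12 did in lcb4D/lcb5D, the exception being replicate 2 at 5 min. The mean response was -2.20, -1.99 and -1.92 in dpl1D, lcb4D/lcb5D and JK939a (SE 0.257 each, limma adjusted p = 1.05e-07, 7.75e-07 and 9.98e-07). At its lowest mean POL1 was 8.60-fold below the level before heat in dpl1D at 25 min, 7.90-fold below in lcb4D/lcb5D at 20 min and 5.95-fold below in JK939a at 20 min.

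POL30, the sliding clamp PCNA that holds polymerases on the DNA, fell in each strain from 5 min on. It read 8.03 and 8.54 before heat in dpl1D, 7.07 and 6.81 at 5 min, 5.99 and 5.93 at 10 min, and between 5.12 and 6.22 on the 8 later arrays. In lcb4D/lcb5D it read 8.31 and 8.51 before heat, 7.05 and 6.90 at 5 min, 5.75 and 5.33 at 10 min, and between 5.14 and 6.01 later. In JK939a it read 7.99 and 8.43 before heat, 6.90 and 7.08 at 5 min, 6.08 and 5.81 at 10 min, and between 5.66 and 6.10 later. Every heated array of every strain was below both unheated arrays of that strain, the 5 min arrays included. The mean response was -2.44, -2.66 and -2.18 in dpl1D, lcb4D/lcb5D and JK939a (SE 0.205 each, limma adjusted p = 3.88e-10, 1.61e-10 and 4.06e-09).

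At 5 min POL30 was the 1 member called lower in each strain, by 1.34 in dpl1D, 1.43 in lcb4D/lcb5D and 1.22 in JK939a (log2, SE 0.269, limma adjusted p = 0.000802, 0.000429 and 0.00247). The share of all genes called lower at 5 min was 8.06%, 9.03% and 7.23%. POL30 had then reached 45.7%, 46.6% and 49.1% of its largest fall, whereas RNR1 had reached 29.7%, 11.0% and 26.6% and POL1 21.3%, 4.47% and 23.4%. Whether POL30 moved earlier than RNR1 was not tested. The JK939a call at 5 min was lost without replicate 2 before heat (-0.995, adjusted p = 0.0563). RNR1 differed at 5 min by -1.16 in dpl1D, -0.46 in lcb4D/lcb5D and -1.09 in JK939a, and with a replicate block within strains the dpl1D value was called (adjusted p = 0.0351), which brought the count in dpl1D to 2.

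RFA1 and RFA2, subunits of replication protein A, which coats single-stranded DNA, had 1 call between them in the mean response, RFA1 in lcb4D/lcb5D. RFA1 ran over the heated arrays from 7.65 over a median of 7.91 to 8.92 in lcb4D/lcb5D, against 8.44 and 8.84 before heat. In dpl1D it ran from 7.47 over 7.81 to 8.39, against 8.01 and 8.43, and in JK939a from 7.53 over 7.89 to 8.57, against 7.81 and 8.59. Of 12 heated arrays 11 lay below both unheated ones in lcb4D/lcb5D, 8 in dpl1D and 4 in JK939a. The mean response was -0.69 in lcb4D/lcb5D (SE 0.279, limma adjusted p = 0.0469), -0.32 in dpl1D (0.353) and -0.23 in JK939a (0.530). The lcb4D/lcb5D call held in 4 of the 14 fits that each left out 1 array of that strain, and the adjusted p reached 0.376 without replicate 2 before heat. For RFA2 the mean response was -0.13 in dpl1D, -0.38 in lcb4D/lcb5D and 0.10 in JK939a (SE 0.250 each), with intervals of -0.650 to 0.381, -0.891 to 0.140 and -0.411 to 0.619, and none was called.

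CDC9, the DNA ligase that joins Okazaki fragments, fell in each strain. The heated arrays ran from 6.67 over a median of 6.97 to 7.99 in dpl1D, against 7.96 and 8.01 before heat. In lcb4D/lcb5D they ran from 6.81 over 7.39 to 7.98, against 8.27 and 8.15, and in JK939a from 6.40 over 7.00 to 7.78, against 7.75 and 8.25. Heated arrays lay below both unheated arrays 11, 12 and 11 of 12 times in dpl1D, lcb4D/lcb5D and JK939a, the exceptions being 5 min arrays. The mean response was -0.91, -0.87 and -0.94 (SE 0.172 each, limma adjusted p = 9.35e-05, 0.000197 and 6.68e-05), and CDC9 was called at each time from 10 min on in each strain.

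**Figure D3:**
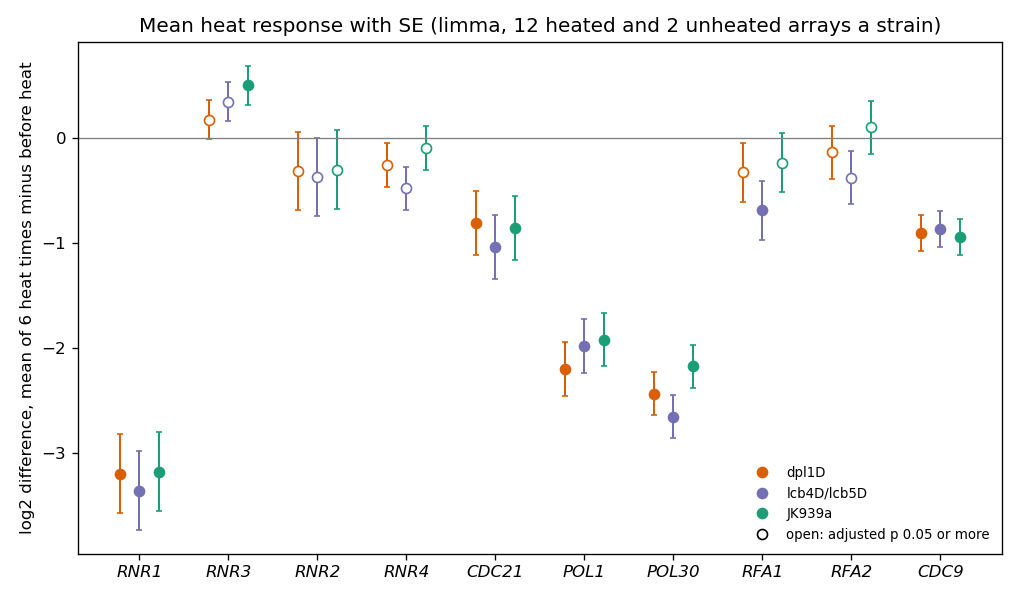
Log2 difference between the mean of the 6 heat times and before heat, with its SE, for the 10 genes in dpl1D, lcb4D/lcb5D and JK939a. Filled points have a limma adjusted p under 0.05. RNR1, POL30 and POL1 lie between -1.92 and -3.36, CDC21 and CDC9 between -0.81 and -1.03, and the other 5 genes between -0.69 and 0.51.

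At 30 min the members called lower were 6 of 10 in dpl1D (20.7% of all genes), 7 of 10 in lcb4D/lcb5D (13.5%) and 4 of 10 in JK939a (17.8%). RNR1, POL1, POL30 and CDC9 were called in each strain, RNR4 and CDC21 in dpl1D and lcb4D/lcb5D, and RFA1 in lcb4D/lcb5D (-0.98, limma adjusted p = 0.0477). RNR3 was the 1 member called higher at 30 min, in JK939a (0.62, limma adjusted p = 0.0466, 18.5% of all genes). With a replicate block within strains, limma added RNR2 to the members called lower in dpl1D (-0.96, adjusted p = 0.000378) and lcb4D/lcb5D (-0.73, 0.00640). With the same block JK939a had 7 members called lower, RNR2, RNR4 and CDC21 (-0.79, adjusted p = 0.0299) added, and lcb4D/lcb5D had 1 called higher. In lcb4D/lcb5D the count of 7 came down to 3 without replicate 2 before heat or replicate 1 at 30 min, and to 4 without replicate 1 before heat or replicate 2 at 30 min. RFA1 was called there in 2 of 14 fits leaving out 1 array of the strain (adjusted p up to 0.266, without replicate 2 before heat). CDC9 and CDC21 of lcb4D/lcb5D lost their 30 min calls without any 1 of its 4 arrays at 0 and 30 min, at adjusted p of 0.055 to 0.106 for CDC9 and 0.0736 to 0.114 for CDC21. CDC21 of dpl1D was not called without replicate 2 before heat (0.0646). CDC9 of lcb4D/lcb5D was at -0.0089 with arrays centred on the hybridisation controls (adjusted p = 0.995). The RNR3 call in JK939a was lost without either unheated array (0.54, adjusted p = 0.197, without replicate 1 and 0.71, adjusted p = 0.0830, without replicate 2), and in 10 of 14 fits leaving out 1 array of the strain.

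Within heat, the late times (25 and 30 min) were set against the early ones (10 and 15 min), which leaves the unheated arrays out. POL1 was lower late in dpl1D (-0.82, SE 0.238, limma adjusted p = 0.0338), the 1 member called there (3.43% of all genes called lower). RNR4 was lower late in JK939a (-0.77, SE 0.191, adjusted p = 0.0119), again the 1 member (3.22%). In lcb4D/lcb5D limma called 0 members (2.99% of all genes), and 1 passed an unadjusted p under 0.05: RNR4, at -0.57 (adjusted p = 0.0503). RNR1, by contrast, differed between late and early heat by -0.13, 0.20 and 0.08 in dpl1D, lcb4D/lcb5D and JK939a (SE 0.348). At 10 min RNR1 had reached 79.8%, 88.6% and 75.5% of its largest fall, and it rose from its lowest mean to 30 min. Its small differences here therefore do not mean a flat course. POL1 in dpl1D had reached 57.4% of its largest fall at 10 min. With a replicate block within strains the counts were 4, 2 and 4. The block's calls were RNR2, RNR4, CDC21 and POL1 in dpl1D, RNR2 and RNR4 in lcb4D/lcb5D, and RNR2, RNR4, POL1 and CDC9 in JK939a. Without the block, the POL1 call was lost in 7 of 14 fits leaving out 1 dpl1D array (adjusted p up to 0.283, without replicate 2 at 15 min), and the RNR4 call without replicate 2 at 10 min (0.0936), replicate 2 at 15 min (0.0777), replicate 1 at 25 min (0.0718) or replicate 1 at 30 min (0.0508) of JK939a.

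The deletion strains were next set against JK939a and each other. Before heat limma called 0 members in each of the 3 pairs, and 0 passed an unadjusted p under 0.05. Of all genes 0.0177% were called in dpl1D minus JK939a, 0.106% in lcb4D/lcb5D minus JK939a and 0.141% in dpl1D minus lcb4D/lcb5D. For RNR1 the difference before heat was 0.18 in dpl1D minus JK939a (95% interval -0.833 to 1.19) and 0.39 in lcb4D/lcb5D minus JK939a (-0.622 to 1.41), so differences of over 1 log2 unit remain within the intervals. A test of all 6 times jointly for a strain difference in heat response also called 0 members in each pair, with 0 at an unadjusted p under 0.05, where 0% of all genes were called in dpl1D minus JK939a, 0.0177% in lcb4D/lcb5D minus JK939a and 0.0354% in dpl1D minus lcb4D/lcb5D. The calls of RFA1 in lcb4D/lcb5D and RNR3 in JK939a therefore are not shown to differ from the other strains.

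Averaged over the 7 times, limma called 0 members in dpl1D minus JK939a (0 at an unadjusted p under 0.05, 0.0177% of all genes called), and RNR1 differed by 0.16 (95% interval -0.220 to 0.546). In lcb4D/lcb5D minus JK939a 2 members were higher, POL1 by 0.38 (SE 0.127, adjusted p = 0.0370) and CDC9 by 0.27 (SE 0.0852, adjusted p = 0.0257), where 12.7% of all genes were called higher. RNR4 was lower by 0.34 in the same comparison (-0.34, SE 0.102, adjusted p = 0.0214), where 6.77% of all genes were called lower. In dpl1D minus lcb4D/lcb5D the 1 call was CDC9 at -0.26 (SE 0.0852, adjusted p = 0.0427, 8.75% of all genes called lower). The 3 pairs share strains, so these values are not independent. By replicate number, the POL1 difference in lcb4D/lcb5D minus JK939a was 0.753 in replicate 1 and 0.0111 in replicate 2 (means of the 7 times), so it lay in replicate 1. CDC9 in that pair was at 0.378 and 0.17, and RNR4 at -0.241 and -0.439. CDC9 in dpl1D minus lcb4D/lcb5D was at -0.283 and -0.242. POL1 in lcb4D/lcb5D minus JK939a was called in 14 of 28 fits leaving out 1 array of either strain, CDC9 in 22 of 28 and RNR4 in 28 of 28, and neither POL1 nor CDC9 was called with arrays centred on their medians. CDC9 in dpl1D minus lcb4D/lcb5D was called in 7 of 28 such fits (adjusted p up to 0.104, without replicate 2 of lcb4D/lcb5D at 20 min), and not with median centring, hybridisation-control centring or the SRB4 covariate. With a replicate block within strains RNR2 was also called in lcb4D/lcb5D minus JK939a (-0.36, adjusted p = 0.00101), and RNR2 (0.25, 0.0172), RNR4 (0.28, 0.00326) and POL1 (-0.34, 0.0170) in dpl1D minus lcb4D/lcb5D; the block across strains added the same 4.

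**Figure D4:**
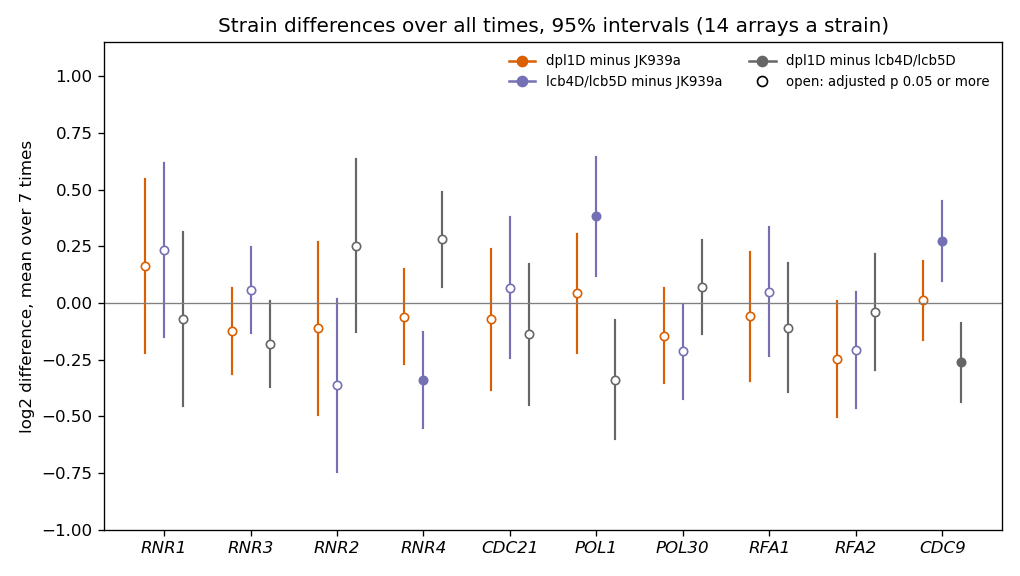
Log2 strain differences averaged over the 7 times, with 95% intervals, for the 10 genes in dpl1D minus JK939a, lcb4D/lcb5D minus JK939a and dpl1D minus lcb4D/lcb5D. The filled points, with an adjusted p under 0.05, are RNR4, POL1 and CDC9 in lcb4D/lcb5D minus JK939a and CDC9 in dpl1D minus lcb4D/lcb5D, and none exceeds 0.38 in size.

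Genes of the same processes, the 10 members included, were counted from 15 lists named for this work, 147 of whose 157 genes had a probe set of their own. In the mean heat response of JK939a, dNTP supply had 8 of 14 genes lower and 3 higher, against 24.5% lower and 21.8% higher over all genes; in dpl1D 7 were lower and 2 higher, and in lcb4D/lcb5D 8 and 2. Without the members, 6 of the other 9 dNTP supply genes were lower and 2 higher in JK939a, 5 and 2 in dpl1D, and 6 and 2 in lcb4D/lcb5D. DUT1, the dUTPase, differed by -1.52 in dpl1D, -1.65 in lcb4D/lcb5D and -1.64 in JK939a, DFR1, dihydrofolate reductase, by -1.17, -1.09 and -1.51, and GUK1, guanylate kinase, by -1.29, -1.19 and -1.49, all called. Of 9 reductase regulators 2 rose in JK939a, near the 21.8% of all genes called higher there. They were RFX1, the repressor of damage-inducible RNR genes, by 1.01 (SE 0.190) and WTM1, which anchors the small subunits in the nucleus, by 1.01 (SE 0.331). In dpl1D 2 were higher and 1 was lower. In lcb4D/lcb5D 1 was higher, and WTM1 was not called (limma adjusted p = 0.0922). For SML1, the protein inhibitor of Rnr1, the JK939a difference was 0.80 and was not called.

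Among replication factors, read against the 24.5% of all genes called lower in JK939a, 6 of 14 origin licensing genes were lower and 1 was higher in JK939a, with the helicase subunits MCM7 and MCM3 at -1.59 and -0.94 and the licensing factor TAH11 at 1.46. Of 16 initiation genes 4 were lower in JK939a, near the share of all genes, with CDC45 at -1.61. In lcb4D/lcb5D 4 were lower (25.2% of all genes), and in dpl1D 7 were (26.6% of all genes). Of 11 polymerase genes 6 were lower, POL12 and PRI2, partners of Pol1, at -1.36 and -1.02. Of 11 clamp and clamp-loader genes 7 were lower, RFC1 and RFC4 at -0.58 and -0.73. RFA3, the third subunit of replication protein A, fell by 0.66 in dpl1D, 0.99 in lcb4D/lcb5D and 0.53 in JK939a. Of 10 Okazaki fragment and topoisomerase genes 5 were lower, with the flap endonuclease gene RAD27 at -1.61. Without the members POL1, POL30 and CDC9, 5 of 10 polymerase, 6 of 10 clamp and clamp-loader and 4 of 9 Okazaki fragment and topoisomerase genes were lower in JK939a. Cohesion and chromatin assembly had 6 of 10 lower, with the cohesin subunit gene MCD1 at -1.41. None of these lists except origin licensing had a gene called higher in JK939a.

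**Figure D5:**
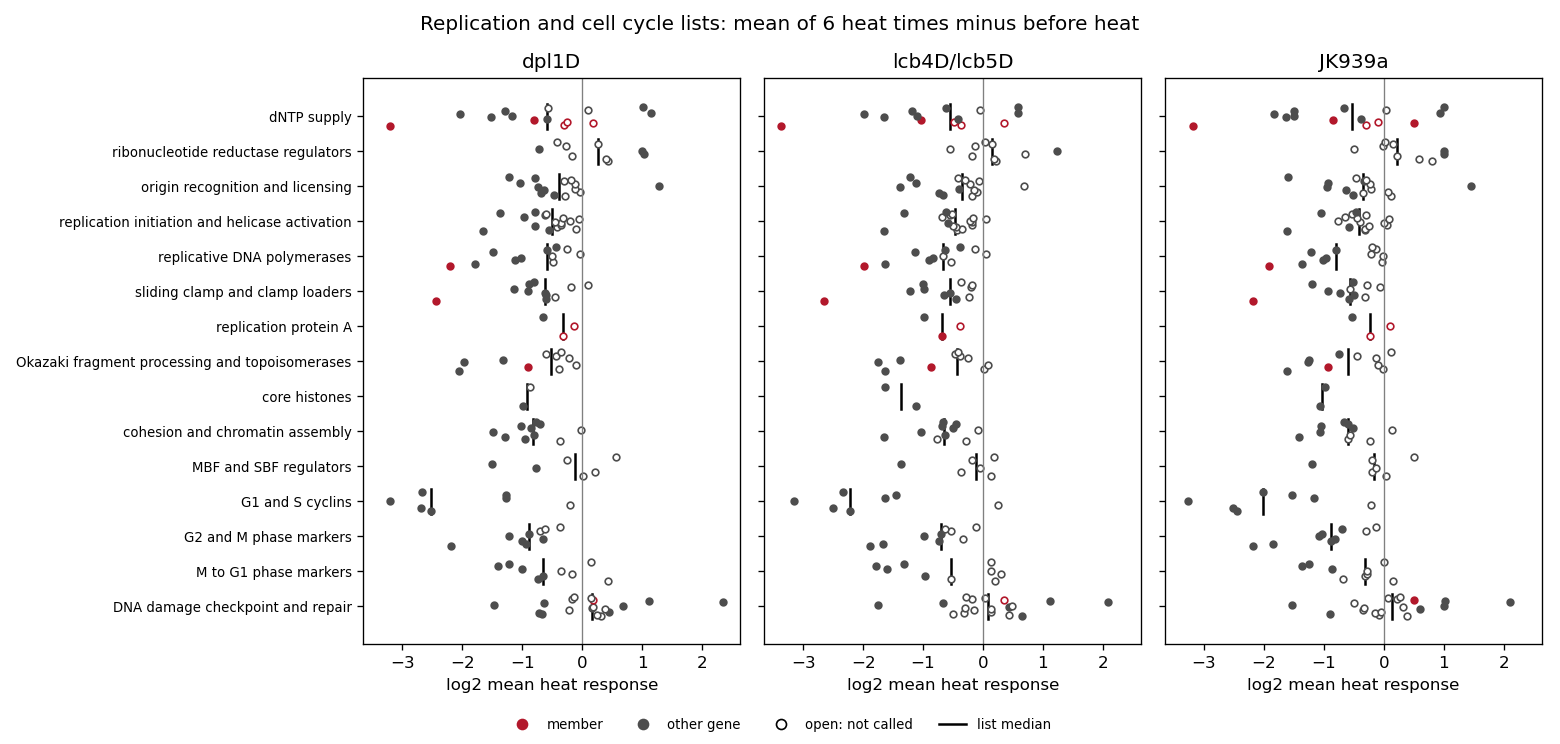
Mean heat response (log2) of each gene of the 15 lists in dpl1D, lcb4D/lcb5D and JK939a, with the 10 members in red, other genes in grey and the list median as a black bar; open points were not called. RNR1, POL1 and POL30 lie at the low end of their lists, and the G1 and S cyclin list has the lowest median, -2.52, -2.21 and -2.01.

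Cell cycle genes were counted in the same way, beside 26.6%, 25.2% and 24.5% of all genes called lower and 20.6%, 19.1% and 21.8% called higher in dpl1D, lcb4D/lcb5D and JK939a. Of the 7 G1 and S cyclin genes 6 were lower in each strain, with PCL1 at -3.21, -3.15 and -3.26 and CLN2 at -2.69, -2.51 and -2.52 in dpl1D, lcb4D/lcb5D and JK939a. Of 9 G2 and M phase genes 6, 5 and 7 were lower, and of 9 M to G1 genes 5, 4 and 3. Both measured histone genes, HTB1 and HTB2, fell in lcb4D/lcb5D (-1.11 and -1.64) and JK939a (-1.07 and -0.98); in dpl1D HTB1 fell (-0.99) and HTB2 was at -0.87 (adjusted p = 0.0657). NRM1, a repressor of the G1/S programme, fell by 1.51, 1.37 and 1.19; of the 6 genes in its list, the regulators of that programme, 2 were lower in dpl1D, SWI6 (-0.77, limma adjusted p = 0.0402) besides NRM1, and 1 each in lcb4D/lcb5D and JK939a. Of 18 damage and repair genes 5 were higher in JK939a, RNR3 among them, which is near the share of all genes, and 2 were lower, with PHR1, the photolyase, at 2.11 and MSH6, a mismatch repair gene, at -1.53.

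The group means of the members were correlated over the 21 combinations of strain and time, which share the same arrays and the same time courses. RNR1 followed POL1 and POL30 (Pearson r = 0.952 and 0.951) and RNR2 followed RNR4 (0.902), whereas RNR1 and RNR4 were at 0.310 and RNR1 and RNR3 at -0.687. Other pairs lay between, such as RNR2 and CDC21 (0.671), RNR4 and CDC21 (0.532) and RNR1 and RNR2 (0.468). By the same measure over all genes, the closest gene was INA1 for RNR1 (0.984), RTT107 for POL1 (0.977), RNH202 for POL30 (0.980), RSR1 for CDC9 (0.967) and ERG6 for CDC21 (0.961). The closest to RNR2 was EFB1, a translation elongation factor gene (0.938), and to RNR4 GUS1, a glutamyl-tRNA synthetase gene (0.922). RFA1, RFA2 and RNR3 had no gene this close: ACM1 at 0.819, DCW1 at 0.688 and MRX20 at 0.875.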

How the data were processed

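The deposited values are RMA values, per the submitters' processing notes, which name RMA without a version, and were taken as log2. The log base was inferred from the range, 1.36 to 14.7, and quantile normalisation within RMA hides any shift of all transcripts together. Array medians lay between 5.61 and 5.80; the number of arrays limits the precision. Of 9335 probe sets, 60 are controls and 6504 carry 1 gene symbol in the platform annotation, which gave 5656 genes, read from the brightest probe set. Groups come from the strain, time and title labels. A mean for each of 21 groups entered a linear model in limma 3.58.1 under R 4.3.3 (21 residual degrees of freedom), and the code was tested on simulated data. That simulation drew noise independently for each array and covered only the JK939a mean heat response. It held no shared deviation by replicate number. List genes were named as up to 3 non-members a list with the smallest p among those called in the JK939a mean heat response; the closest gene to each member was the non-member with the highest Pearson r over the 21 group means. SML1 and SWI6 were picked after their values were seen. Members, lists and tests were chosen with earlier results of these data known. Same-numbered arrays deviated together: all 210 correlations between groups over non-control probe sets were above 0.1 (lowest 0.130), and 209 of 210 over the tested genes (lowest 0.0669), so replicate blocks were tried, coded around each strain's mean so that strain differences average both replicates. The other alternatives were 3 scalings, a filter on dim genes, a stricter threshold, other variance models, array weights, the SRB4 covariate, the mean of a gene's probe sets, separate fits and leaving out each array. Sequences and coordinates are not used here.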

Additional observations from a re-analysis of the deposited data

How the results depend on the processing

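RNR1, POL1 and POL30 were called lower in the mean heat response of each strain under all 12 alternatives and in each of 14 fits leaving out 1 array of the strain, and no called value changed sign. Centring on the bacterial hybridisation controls left 3 members lower in each strain's mean response, 3, 1 and 1 at 30 min (dpl1D, lcb4D/lcb5D, JK939a), 0 at 5 min and 0 in every other called count. The replicate block within strains gave 4, 2 and 4 members lower late in heat, 2 at 5 min in dpl1D, 7 lower at 30 min in JK939a, 1 higher at 30 min in lcb4D/lcb5D, 2 lower over all times in lcb4D/lcb5D minus JK939a, and 2 higher and 2 lower in dpl1D minus lcb4D/lcb5D; the replicate block across strains gave the same counts late, at 30 min in lcb4D/lcb5D and over all times. Other counts outside 1.5 times were, with the SRB4 covariate, 2 lower at 5 min and 3 late in dpl1D, 1 higher at 30 min and 1 lower late in lcb4D/lcb5D, 2 lower in lcb4D/lcb5D minus JK939a, and 2 higher and 0 lower in dpl1D minus lcb4D/lcb5D. At an adjusted p under 0.01 lcb4D/lcb5D kept a count of 3 at 30 min, and the late falls of dpl1D and JK939a, both JK939a rises and all strain differences came to 0. Array weights gave 2 lower at 5 min in dpl1D and 1 higher in the mean response of lcb4D/lcb5D. Cyclic loess gave 1 higher in the mean response of dpl1D and of lcb4D/lcb5D, at 30 min in lcb4D/lcb5D and at 5 min in JK939a, 2, 1 and 2 lower late, and 1 higher and 2 lower in lcb4D/lcb5D minus JK939a. Median centring gave 1 lower late in lcb4D/lcb5D and 0 for the JK939a rise at 30 min, for higher members in lcb4D/lcb5D minus JK939a and for lower members in dpl1D minus lcb4D/lcb5D. Separate fits gave 2 at 5 min in dpl1D and 0 for the JK939a rise at 30 min, its late fall and the higher members in lcb4D/lcb5D minus JK939a; leaving out the dimmest 25% of genes removed RNR3 and both JK939a rises (0 each). Leaving out 1 array moved the counts within 0 to 2 (lower) and 0 to 1 (higher) in dpl1D minus lcb4D/lcb5D, 0 to 3 higher in lcb4D/lcb5D minus JK939a, 0 to 1 at 5 min in JK939a, 0 to 2 late in dpl1D and JK939a, 0 to 1 late in lcb4D/lcb5D, 0 to 1 for both JK939a rises, and 0 to 1 higher and 3 to 7 lower at 30 min in lcb4D/lcb5D; a group left with a lone array borrowed its spread from the other groups. The cause was not tested except where the alternative itself removes arrays or genes. CDC9 and CDC21 lost their mean response under hybridisation-control centring (CDC9 at -0.69, -0.62 and -0.66). The mean of those controls ran from 7.48 to 9.53 over the 42 arrays.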
